A study of Mus musculus with 11 samples.

Results

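The genes described here are 36 genes of macrophages, complement and chemokines, listed by name and grouped by role: the C1q genes, genes expressed by macrophages in general, markers of resident heart macrophages, markers of recruited or injury-associated macrophages, and CC chemokines. Of the 36, 34 were measured among the 18194 genes that had a probe set with 1 gene symbol. C3 and Spp1 were not analysed here. For a gene with several probe sets, the brightest on average across the 11 arrays was used, and its level is the deposited log2 signal, so a difference of 1 is a 2-fold difference. The measured genes comprised 3 C1q genes, 15 general macrophage genes, 6 resident markers, 5 recruited or injury-associated markers and 5 CC chemokines.

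Macrophages are phagocytes that live in every organ, and the healthy heart holds a resident population between its muscle cells. In mice, resident cardiac macrophages are recognised by Timd4, Lyve1, Folr2, Cd163 and Mrc1, whereas cells that enter from blood monocytes are recognised by the chemokine receptor Ccr2. Macrophages are the main source of C1q, which starts the classical complement pathway, and they both release and respond to CC chemokines, the small secreted proteins that draw leukocytes into tissue.

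The study asked how overexpression of the nucleosome-binding protein HMGN5 in the heart alters expression, using Affymetrix arrays of total RNA from the left ventricle. All mice were on a C57BL/6 background. The transgene was a FLAG-tagged, full-length mouse Hmgn5 cDNA under the CAG promoter, blocked by floxed LacZ until an alphaMHC-cre recombinase removed LacZ; the alphaMHC promoter works in heart muscle cells and not in macrophages. Control mice were labelled wild-type. Adults gave 3 arrays of transgenic and 3 of control hearts, and newborns gave 3 of transgenic and 2 of control hearts, called biological replicates in the labels, which give no age in days or weeks. Because cre was carried by the transgenic mice while the controls were wild-type, effects of cre and of Hmgn5 cannot be told apart. In whole-ventricle RNA, fewer cells of a type and less RNA per cell cannot be told apart.

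Some arrays stood apart from the rest. Replicate 3 of both adult groups had an 18S ribosomal RNA signal of 12.18 (transgenic) and 11.89 (control), against 7.65 to 8.58 on the other 4 adult arrays and 10.05 to 10.53 on newborn arrays, so that age cannot be told apart from whatever set this signal. The labels name no batch, so the replicate 3 arrays are called the high-18S arrays here. On adult control replicate 3, Ucp1, a marker of brown fat, read 7.62, against 3.71 to 3.91 on the other 5 adult arrays. The mean of 3 atrial markers was 10.53, 6.59 and 6.52 in transgenic adults, against 10.10, 10.38 and 12.24 in control adults, while that of 6 heart muscle markers lay between 13.03 and 13.47 on all 11 arrays. The Hmgn5 probe set read 8.26 to 8.71 in transgenic adults, against 8.44 to 8.77 in control adults, and so does not check the labels.

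Macrophage, complement and chemokine genes were called higher in adult hearts labelled transgenic, with at least 1 called gene in each of the 5 groups of genes. Of the 34 genes, 7 rose and 0 fell (limma, Benjamini-Hochberg adjusted p under 0.05 over all 18194 genes): Gpnmb, Ccl8, C1qa, C1qc, Ctss, Cd14 and Mrc1. These 7 are 20.6% of the 34, against 4.16% of all genes called higher and 2.93% called lower. The median difference of the 34 was 0.52, against 0.00 for all genes, and 29 of the 34 were above 0. Transgenic and control arrays did not overlap for 11 of the 34 genes (32.4%), each time with the transgenic arrays above, whereas 10% of all genes had the transgenic arrays all above and 7.94% all below.

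**Figure D1:**
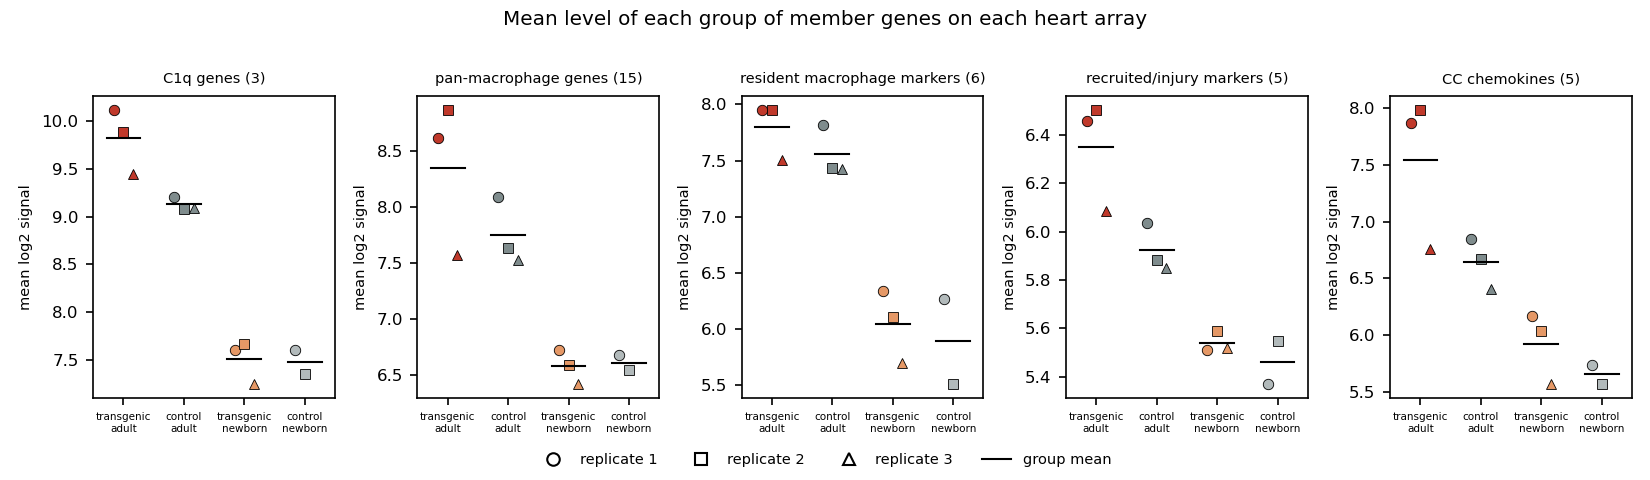
Mean log2 signal of each group of genes on each of the 11 heart arrays. Points are arrays, symbols give the replicate number and lines are group means; the C1q mean was 10.12, 9.88 and 9.45 in transgenic adults, against 9.21, 9.08 and 9.09 in control adults, and every newborn array lies below the adult arrays for C1q, general macrophage and resident genes.

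The adult test borrows its spread from all 11 arrays, and the adult arrays varied more than the newborn ones. The median SD of the 34 genes was 0.53 in transgenic adults and 0.28 in control adults, and 0.22 in transgenic newborns and 0.18 in control newborns. With the 6 adult arrays alone, 1 of the 34 genes (Gpnmb) was called. In that fit the SE was smaller than in the main fit for C1qc (0.14 against 0.15) and Mrc1 (0.20 against 0.21). It was larger for C1qa, Ctss, Cd14, Gpnmb and Ccl8. Why the other calls were lost was not tested. The count among the 34 genes was 18 without the pair of high-18S arrays, 14 with the high 18S signal as a factor, and 1 with the atrial markers as a covariate. Over all genes, 1290 were called in the main fit and 373 with the adult arrays alone. Without the pair, 2183 of all genes were called, with the factor 2625 and with the covariate 238. With the covariate, C1qa, C1qc, Ctss, Mrc1 and Ccl8 had larger differences than in the main fit, Cd14 and Gpnmb smaller ones, and each SE was larger.

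Gpnmb, a transmembrane glycoprotein gene that macrophages rich in lysosomes switch on in injured tissue, showed the clearest separation. Its log2 signal was 6.82, 6.83 and 7.34 in transgenic adults, against 5.42, 5.17 and 5.27 in control adults. Every transgenic adult array lay above every control adult array, and the high-18S transgenic array was the highest. The difference was 1.71 (SE 0.16, limma adjusted p = 1.9e-04), a 3.26-fold rise. Gpnmb was the only one of the 34 genes called under all 22 alternative settings, with differences of 0.86 to 1.80. The lowest of these came from averaging its probe sets, since a second Gpnmb probe set with a mean signal of 3.02 differed by 0.02.

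Ccl8, a CC chemokine gene that in mice encodes a ligand of Ccr8, had the largest difference of the 34 genes and the widest spread. It read 8.72, 9.51 and 6.70 in transgenic adults, against 6.09, 5.44 and 6.42 in control adults. The groups did not overlap, but transgenic replicate 3 stood close to control replicate 3. The difference was 2.33 (SE 0.55, adjusted p = 0.0275 by limma). Between replicates 1 and 2 of each group it was 3.35, and between the high-18S arrays it was 0.28. Without transgenic replicate 1 the adjusted p was 0.0922, and without transgenic replicate 2 it was 0.0691.

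The 3 C1q genes encode the chains of one hexameric protein and moved by nearly the same amount, from 0.67 to 0.70. C1qa read 10.41, 10.17 and 9.66 in transgenic adults, against 9.45, 9.35 and 9.34 in control adults. C1qc read 9.70, 9.45 and 9.34 in transgenic adults, against 8.82, 8.79 and 8.79 in control adults. For both genes each transgenic array exceeded each control array, and the controls were nearly level. The difference was 0.70 for C1qa (SE 0.17, limma adjusted p = 0.0356) and 0.69 for C1qc (SE 0.15, adjusted p = 0.0188). C1qb averaged 9.87 ± 0.47 in transgenic adults and 9.21 ± 0.13 in control adults (SD, n = 3 each), a difference of 0.67 that was not called (limma adjusted p = 0.0962). Transgenic replicate 3, at 9.35, stood level with the highest control.

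Of the 15 general macrophage genes, 2 rose and 0 fell, with a median difference of 0.53. Ctss, the lysosomal cysteine protease cathepsin S that trims antigens for presentation, read 10.12, 10.07 and 9.21 in transgenic adults, against 9.11, 8.67 and 8.71 in control adults. Cd14, a co-receptor for bacterial lipopolysaccharide, read 8.33, 8.54 and 8.00 in transgenic adults, against 7.59, 7.63 and 6.82 in control adults. Neither gene's groups overlapped, and in both genes transgenic replicate 3 was the lowest of its group. The difference was 0.97 for Ctss (SE 0.22, limma adjusted p = 0.0248) and 0.94 for Cd14 (SE 0.24, adjusted p = 0.0378).

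The other 13 general macrophage genes lay between 0.00 and 1.22. Those nearest to a call were Fcgr3, an immunoglobulin G Fc receptor (a difference of 0.88, limma adjusted p = 0.0612), Mpeg1, the pore-forming perforin-2 (0.88, adjusted p = 0.0707), and Ms4a7, a membrane protein of macrophages (1.22, adjusted p = 0.0767). Lysozyme, encoded in myeloid cells by Lyz2, read 11.79, 11.67 and 10.97 in transgenic adults, against 10.89, 11.00 and 10.96 in control adults. Replicates 1 and 2 of the transgenic hearts were above all controls, while replicate 3 fell among them, and the difference of 0.53 was not called (adjusted p = 0.133 by limma). The lysosomal glycoprotein gene Cd68 differed by 0.78 (adjusted p = 0.152, limma).

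Of the general macrophage genes, only Ctss, Cd14 and Fcgr3 were apart between the adult groups, and all the others overlapped. Among those that overlapped, Adgre1, Csf1r and Ptprc were named together after their values were seen. Adgre1, which encodes the F4/80 antigen, averaged 8.02 ± 0.86 in transgenic adults and 7.76 ± 0.29 in control adults (SD, n = 3 each). Csf1r, the receptor for the survival factor CSF1, averaged 10.70 ± 0.55 in transgenic adults and 10.25 ± 0.53 in control adults. Ptprc, which encodes the pan-leukocyte antigen CD45, averaged 7.60 ± 1.05 in transgenic adults and 7.47 ± 0.46 in control adults. The SD of the transgenic arrays exceeded each of these differences. Between replicates 1 and 2 of each group they differed by 0.71 (Adgre1), 0.70 (Csf1r) and 0.52 (Ptprc), and between the high-18S arrays by -0.63, -0.07 and -0.65. Of all 15 general macrophage genes, 14 were above 0. The Fc receptor gamma chain Fcer1g (0.51), the DAP12 adaptor Tyrobp (0.63), the IBA1 gene Aif1 (0.47), the lysosomal membrane gene Laptm5 (0.42) and the fractalkine receptor Cx3cr1 (0.00) were not called either. Laptm5 had 5 probe sets, whose differences ran from -0.25 to 0.42.

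**Figure D2:**
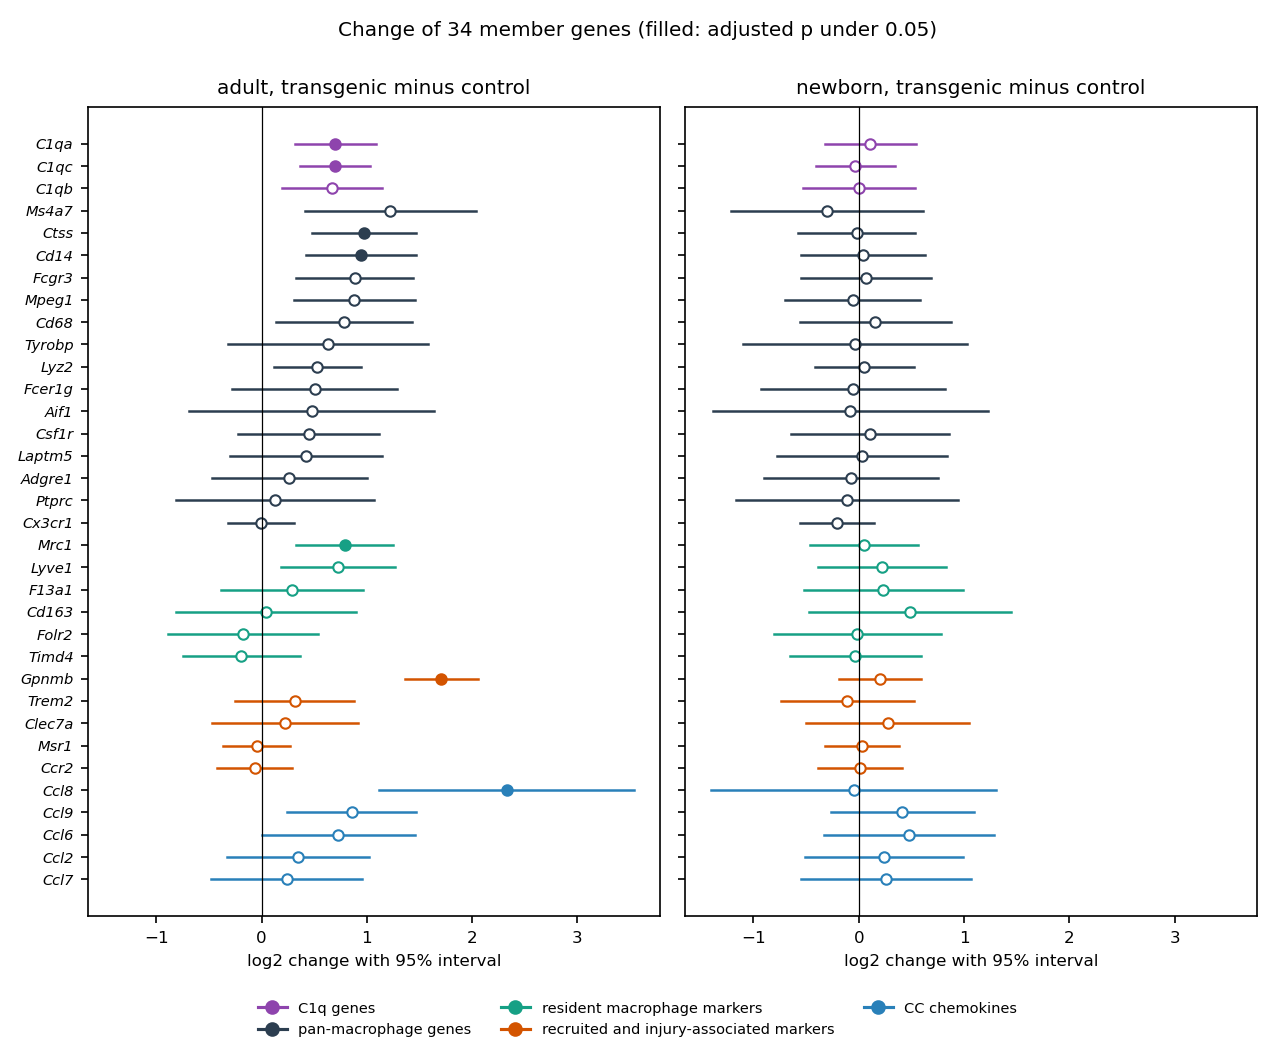
Difference in log2 signal between transgenic and control hearts for the 34 genes, in adults on the left and newborns on the right. Points are limma estimates with 95% intervals, filled where the adjusted p is under 0.05, and colours give the gene group; 7 points are filled in adults and 0 in newborns, where the estimates lie between -0.30 and 0.49.

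Among the 6 markers of resident macrophages, 1 rose, 0 fell and the median difference was 0.16. Mrc1, the mannose receptor CD206, read 9.06, 9.24 and 8.65 in transgenic adults, against 8.44, 7.95 and 8.19 in control adults. All its transgenic arrays were above all its controls, with a difference of 0.79 (SE 0.21, limma adjusted p = 0.0456). Lyve1, a hyaluronan receptor that lymphatic endothelium also expresses, read 9.58, 9.44 and 9.70 in transgenic adults, against 8.93, 8.98 and 8.64 in control adults. Its groups were as clearly apart, yet the difference of 0.73 (SE 0.25) was not called in the main fit (adjusted p = 0.112 by limma) or in any of the 22 alternatives. A second Lyve1 probe set differed by 0.26.

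The other 4 resident markers overlapped between the groups. Timd4, a phosphatidylserine receptor for engulfing dead cells, read 4.68, 4.33 and 3.45 in transgenic adults, against 4.49, 4.43 and 4.13 in control adults. Folr2, the folate receptor beta, read 7.55, 7.18 and 6.07 in transgenic adults, against 7.42, 7.04 and 6.88 in control adults. For both genes transgenic replicate 3 was the lowest of the 6 adult arrays and the remaining arrays intermingled.

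Cd163, the scavenger receptor for haemoglobin bound to haptoglobin, read 7.00, 7.46 and 7.53 in transgenic adults, against 7.71, 6.95 and 7.21 in control adults. F13a1, the coagulation factor XIII A subunit, read 9.85, 10.03 and 9.61 in transgenic adults, against 9.91, 9.24 and 9.47 in control adults. For both genes the groups overlapped. The differences, with 95% intervals from limma, were -0.19 (-0.75 to 0.36) for Timd4, -0.18 (-0.89 to 0.53) for Folr2, 0.04 (-0.82 to 0.90) for Cd163 and 0.29 (-0.39 to 0.96) for F13a1. These intervals include rises as large as those of C1qa and C1qc for Cd163 and F13a1, but not for Timd4 or Folr2. The Folr2 difference ran from -0.49 to 0.29 over the 22 alternatives, and its interval does not cover the choice of arrays and model. Timd4 had a weak signal, at percentile 15.3 of all genes on average, and the filter on low values left it out. Its interval therefore cannot exclude a rise of that size.

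Of the 5 recruited and injury-associated markers, Gpnmb alone was called, and their median difference was 0.22. Ccr2, the monocyte receptor for Ccl2, read 5.75, 5.56 and 5.82 in transgenic adults, against 5.43, 5.98 and 5.90 in control adults. The transgenic values lay within the control range, and the difference was -0.06 (95% interval -0.42 to 0.29). The Ccr2 probe set used had a mean signal of 5.52, at percentile 40.8 of all genes on average. The 3 further Ccr2 probe sets had low mean signals of 3.76, 3.13 and 2.97. They differed by 0.20, 0.02 and 0.08, and at such low signals these differences cannot show whether Ccr2 changed. Whether the number of cells from blood monocytes differed was not tested. The lipid-sensing receptor Trem2, which signals through Tyrobp, differed by 0.31, the beta-glucan receptor Clec7a by 0.22 and the scavenger receptor Msr1 by -0.05.

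The remaining CC chemokines leaned upward without a call. Ccl6, in mice a ligand of Ccr1, read 9.53, 9.42 and 8.98 in transgenic adults, against 8.93, 8.62 and 8.21 in control adults. Each transgenic array was above each control array, and the difference was 0.73 (SE 0.33, limma adjusted p = 0.245). Ccl9, another Ccr1 ligand in mice, averaged 8.71 ± 0.47 in transgenic adults and 7.85 ± 0.16 in control adults (SD, n = 3 each), without overlap. The Ccr2 ligands Ccl2 and Ccl7 differed by 0.34 and 0.24, with overlapping groups.

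**Figure D3:**
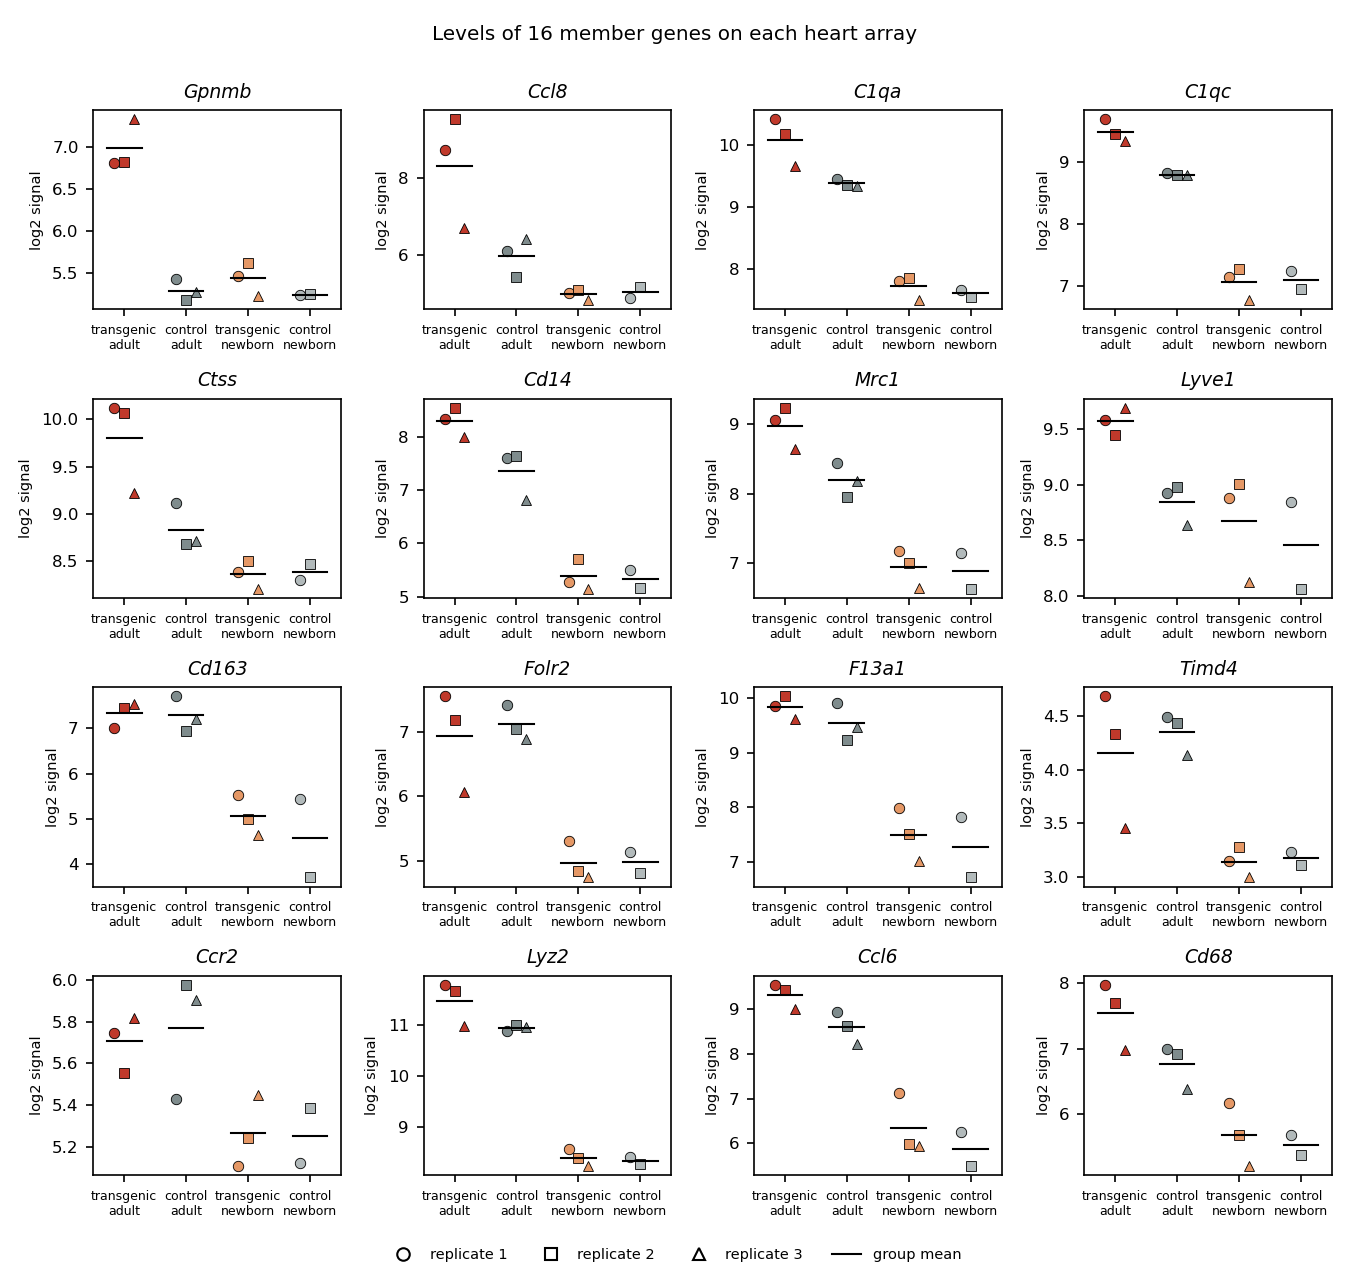
Log2 signal of 16 of the genes on each heart array. Points are arrays, symbols give the replicate number and lines are group means; Gpnmb, Ccl8, C1qa, C1qc, Ctss, Cd14, Mrc1, Lyve1 and Ccl6 are apart between transgenic and control adults, whereas Cd163, Folr2, F13a1, Timd4 and Ccr2 overlap, and Gpnmb in control adults stays at its newborn level.

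The transgenic array of the high-18S pair differed from the other transgenic adults. It was the lowest of the 3 transgenic adults for 30 of the 34 genes (88.2%), against 52.6% of all genes. It was below all controls for 11 genes and above all controls for 11 genes (32.4% each), against 36.8% and 23.3% of all genes. Transgenic replicates 1 and 2 were both above all controls for 23 genes (67.6%), against 21.1% of all genes. Between replicates 1 and 2 of each group the median difference was 0.74, with 31 of 34 genes (91.2%) above 0, while all genes had a median of 0.01 and 52.4% above 0. Between the high-18S arrays, 1 of each group, the median was 0.18, with 21 of 34 (61.8%) above 0, while all genes had a median of -0.02 and 46.9% above 0.

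Single genes behaved differently in the pairs. Gpnmb differed by 2.07 between the high-18S arrays and by 1.53 between the others, Cd14 by 1.18 and 0.83, and Lyve1 by 1.06 and 0.56. Aif1 differed by -0.77 between the high-18S arrays and by 1.10 between the others, and Folr2 by -0.81 and 0.14. The part of the 18S signal in these values was not tested.

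**Figure D4:**
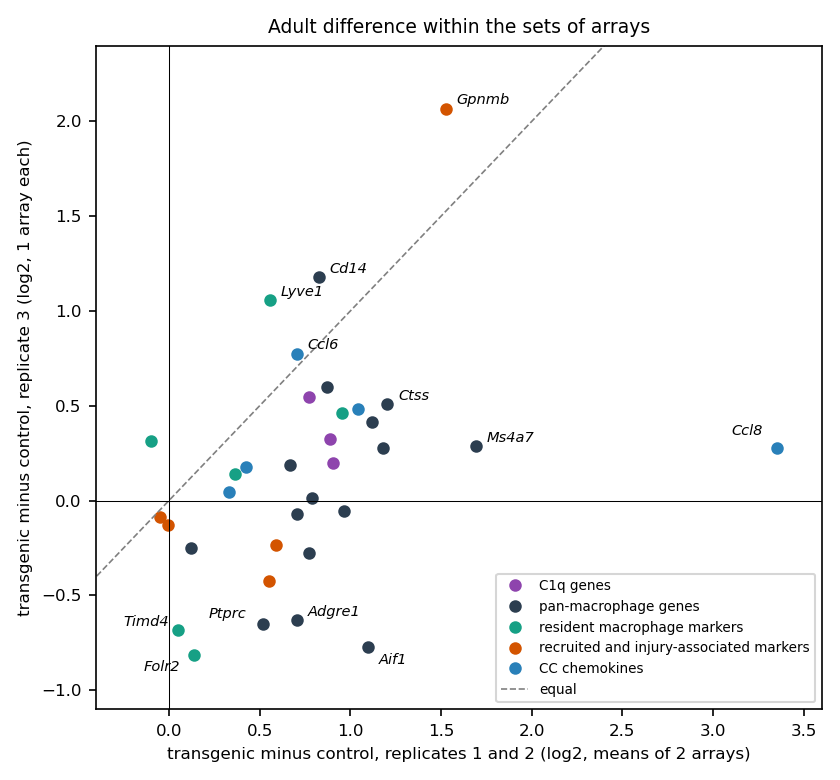
Transgenic minus control difference of the 34 adult genes within each set of arrays, for replicates 1 and 2 on the horizontal axis (log2, means of 2 arrays per group) and for replicate 3 on the vertical axis (log2, 1 array per group). Most points lie under the dashed line of equality; Gpnmb (1.53 and 2.07), Cd14 (0.83 and 1.18) and Lyve1 (0.56 and 1.06) lie above it, and Ccl8 (3.35 and 0.28) far below.

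Promoter sequence is shown for the 5 rising genes with a window in the RefSeq promoter table (mouse GRCm38.p6, 250 bases before to 50 after the annotated start), because sites of the macrophage transcription factor PU.1 are a known feature of macrophage promoters. A PU box was searched as GAGGAA and AP-1 as TGANTCA, each on both strands, and no match of one shared a base with the other. Of the 34 genes, 25 had at least 1 window, 31 windows in all. The PU box was present in 17 of these 31 windows (54.8%), against 28.3% of all 32851 windows. Counted by gene, it was present in 14 of the 25 genes with a window, among them 4 of the 5 rising genes. The share by gene over all genes is not given, so these counts by gene have no background to stand against. AP-1 was present in 6 of 31 windows (19.4%), against 7.81% of all windows, and Gpnmb was the rising gene that had it. Capitals mark the match, and TTCCTC is the PU box on the opposite strand. A match describes these letters alone and shows no binding.
Ctss (chr3:95526610-95526639, plus strand): gacacagggttgGAGGAAaactttgtcctg
Mrc1 (chr2:14229367-14229396, plus strand): aaaagggacagcTTCCTCtgtcctcctttt
C1qc (chr4:136893090-136893119, minus strand): gacggcagacacTTCCTCattttggcacac
Ccl8 (chr11:82114935-82114964, plus strand): gtgggactgcTTCCTCcatgctgctggttt
Gpnmb (chr6:49036514-49036543, plus strand): gccaggggcaagTGACTCAtgagcacgagt

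Further lists hold other genes of the same processes, and their counts stand against 4.16% of all genes called higher and 2.93% called lower in adults. Of 21 other complement genes, 4 rose and 0 fell, namely regulators, a receptor and a lectin-pathway protease: clusterin (Clu, 1.18, SE 0.14) and the C1 inhibitor (Serping1, 1.16, SE 0.16) restrain complement, Vsig4 (1.70, SE 0.25) is a complement receptor of tissue macrophages, and Masp1 (1.94, SE 0.32) is a protease of the lectin pathway. Of 23 phagocytosis and lysosome genes, 7 rose and 0 fell, led by the tetraspanin Cd9 (0.96, SE 0.12), the lectin Clec4d (1.31, SE 0.17) and the cathepsins Ctsk (1.47, SE 0.23) and Ctsz (1.18, SE 0.18). With the adult arrays alone, 3 genes of each list were called. No gene of these or the following lists was called in newborns, and Clec4d was called in the difference between the adult and newborn effects (1.53, SE 0.26, adjusted p = 0.0249 by limma).

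Of 29 other chemokines and chemokine receptors, 1 rose and 2 fell, shares near those of all genes. The receptor Ccr1 rose by 1.07 (SE 0.18, limma adjusted p = 0.00459), and the eosinophil attractant Ccl11 fell by 1.06 (SE 0.26). Cxcl14 fell by 0.58 (SE 0.14). Of 27 cytokine and activation genes, 3 rose and 1 fell. Cyclooxygenase-2 (Ptgs2, 0.92), interleukin 6 (Il6, 1.27) and haem oxygenase 1 (Hmox1, 1.12) rose, and Retnla, a gene of alternatively activated mouse macrophages, fell by 1.75 (SE 0.43, adjusted p = 0.0345 by limma). Of this cytokine and activation list, 4 genes were called in the main fit and 2 with the filter on low values. None of the 17 macrophage growth and transcription factor genes was called, and their median difference was 0.00.

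Markers of other cells were read beside these genes. None of 8 neutrophil, 11 T, B and NK cell, 4 dendritic cell and 5 mast cell markers was called in adults. The neutrophil markers were all above 0, with a mean of 5.13, 4.95 and 5.63 in transgenic adults, against 4.92, 5.02 and 4.54 in control adults, and the groups overlapped. Above 0 were 3 of the T, B and NK cell, 3 of the dendritic cell and 4 of the mast cell markers. The 2 monocyte markers measured, of 5 listed, were not called either. Their mean was 4.78, 4.70 and 4.71 in transgenic adults, against 4.32, 4.23 and 3.99 in control adults, without overlap. Of all genes, 10% had the transgenic adults all above the controls. At such low signals this separation is not read as a difference. Of 7 fibroblast markers, 2 rose and 0 fell, Mfap4 by 2.96 (SE 0.31) and Tcf21 by 0.82 (SE 0.18), and their mean was 10.50, 10.56 and 10.00 in transgenic adults, against 9.44, 9.08 and 9.89 in control adults. Of 4 endothelial markers, Kdr fell by 0.78 (SE 0.17). The part of these cells in the macrophage and complement values was not tested.

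Newborn hearts showed no call among the 34 genes or among all 18194, a background of 0% (limma adjusted p of 0.999985 at the lowest for the 34). The differences lay between -0.30 for Ms4a7 and 0.49 for Cd163, with a median of 0.03, and at an unadjusted p under 0.05 there were 0 of the 34 genes and 198 of all genes. C1qa read 7.82, 7.85 and 7.50 in transgenic newborns, against 7.67 and 7.56 in control newborns. Ccl8 read 5.03, 5.09 and 4.83 in transgenic newborns, against 4.90 and 5.17 in control newborns. Both genes overlapped between the groups, as did 33 of the 34. In newborns 11.1% of all genes had the transgenic arrays all above the controls and 9.83% had them all below. The 1 gene of the 34 without overlap (2.94%) was Cx3cr1, at 5.40, 5.18 and 5.40 in transgenic newborns, against 5.57 and 5.50 in control newborns. Its value was exactly 5.4043 on transgenic newborn replicates 1 and 3 and on control adult replicates 1 and 3. A second Cx3cr1 probe set averaged 3.54, so this separation of low signals is not read as a difference. For other genes read on every array, Ctss was 8.38, 8.49 and 8.20 in transgenic newborns, against 8.30 and 8.46 in control newborns. Mrc1 was 7.17, 6.99 and 6.63 in transgenic newborns, against 7.14 and 6.62 in control newborns. Ccr2 was 5.11, 5.24 and 5.45 in transgenic newborns, against 5.12 and 5.38 in control newborns. In each of them the control values fell inside or beside the transgenic range. Timd4 was 3.15, 3.28 and 3.00 in transgenic newborns, against 3.23 and 3.12 in control newborns.

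The precision in newborns differed between genes. The 95% interval reached 0.70 to either side for the median of the 34 genes. For the C1q genes it was narrower, at -0.32 to 0.54 for C1qa, -0.53 to 0.53 for C1qb and -0.40 to 0.34 for C1qc. These intervals did not reach the adult estimates of 0.70, 0.67 and 0.69. The adult estimates are uncertain too, with 95% intervals that start at 0.32, 0.19 and 0.36. The direct test of the difference between the ages called no C1q gene.

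The difference between the adult and the newborn effect was tested directly. Gpnmb was called, with an adult effect larger by 1.51 (SE 0.24, limma adjusted p = 0.0196), and no other of the 34 genes was. Its newborn signal was 5.46, 5.62 and 5.22 in transgenic hearts, against 5.23 and 5.24 in control hearts. That is 1 gene of 34 (2.94%), against 0.445% of all genes called higher and 0.242% called lower. The median of the 34 differences was 0.46, against 0.00 for all genes. Ccl8 (2.38, SE 0.82, adjusted p = 0.303 by limma) and C1qc (0.73, SE 0.23, adjusted p = 0.237) were not called. Without transgenic adult replicate 3 the count was 6, and it was 0 without control adult replicate 2, without transgenic newborn replicate 1 or 3, or without either newborn control.

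Most of the 34 genes were higher in adult than in newborn ventricles. In control hearts 20 of 34 (58.8%) were called higher in adults, against 14.9% of all genes, and 0 were called lower, against 18.1% of all genes. In transgenic hearts 28 of 34 (82.4%) were called higher, against 19.7% of all genes, and 0 lower, against 19.7%. The median difference of the 34 was 1.87 in transgenic and 1.16 in control hearts, while that of all genes was 0.09 in both. Both age comparisons called 18 genes, and 4 genes (Trem2, Cx3cr1, Ccl2 and Ccl7) were called in neither.

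Resident markers were among the genes with the largest age differences. Cd163 read 7.71, 6.95 and 7.21 in control adults, against 5.43 and 3.70 in control newborns. Folr2 read 7.42, 7.04 and 6.88 in control adults, against 5.14 and 4.81 in control newborns. F13a1 read 9.91, 9.24 and 9.47 in control adults, against 7.82 and 6.72 in control newborns. No adult array overlapped a newborn array for any of the 3, and the newborn controls differed widely from each other for Cd163 and F13a1.

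The age difference in control hearts was 2.73 for Cd163 (SE 0.44, limma adjusted p = 8.4e-04), 2.27 for F13a1 (SE 0.34), 2.14 for Folr2 (SE 0.36), 1.31 for Mrc1 (SE 0.23) and 1.17 for Timd4 (SE 0.28), all called. Lyve1 was the exception, at 8.93, 8.98 and 8.64 in control adults, against 8.84 and 8.06 in control newborns. A newborn control lay inside the adult range, and the difference of 0.40 was not called (adjusted p = 0.28 by limma). In transgenic hearts all 6 resident markers were called higher in adults, by 0.90 (SE 0.25) for Lyve1 and by up to 2.33 for F13a1. Transgenic newborns read 5.52, 4.99 and 4.65 for Cd163, 5.30, 4.84 and 4.74 for Folr2, 7.99, 7.51 and 7.01 for F13a1, and 8.89, 9.01 and 8.13 for Lyve1. The Timd4 signal was weak at both ages, averaging 4.35 in control adults and 3.17 in control newborns.

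Lysozyme, C1q and the chemokine Ccl6 also had large age differences. Lyz2 read 8.56, 8.38 and 8.23 in transgenic newborns and 8.40 and 8.27 in control newborns, far under every adult array. Its age difference was 3.09 (SE 0.19, limma adjusted p = 9.9e-07) in transgenic and 2.62 (SE 0.21, adjusted p = 8.3e-06) in control hearts. Ccl6 read 7.13, 5.99 and 5.94 in transgenic newborns and 6.25 and 5.50 in control newborns, and was higher in adults by 2.96 in transgenic and 2.71 in control hearts. C1qc read 7.15, 7.28 and 6.76 in transgenic newborns and 7.24 and 6.95 in control newborns, with age differences of 2.43 and 1.71 in transgenic and control hearts.

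Some genes were called with age in 1 genotype. In all, 10 were called in transgenic hearts alone, among them Ccl8, Gpnmb and Ctss, whose age differences were 3.33, 1.56 and 1.44 in transgenic hearts, against 0.95, 0.05 and 0.45 in control hearts. Ccr2 and Msr1 were called in control hearts alone, at 0.52 and 0.47, against 0.44 and 0.39 in transgenic hearts. The contrast between the age differences is the same as that between the adult and newborn effects, in which Gpnmb alone was called. Cd14 read 5.28, 5.71 and 5.15 in transgenic newborns and 5.51 and 5.16 in control newborns, and was called at both, 2.91 in transgenic and 2.01 in control hearts. Ccl2 and Ccl7 read slightly lower in adults, by -0.28 each in transgenic hearts and by -0.38 and -0.26 in control hearts, and were not called. The age comparisons share their adult arrays with the adult comparison of transgenic and control hearts.

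The further lists are given beside the shares of all genes called with age, which were 19.7% higher and 19.7% lower in transgenic hearts and 14.9% higher and 18.1% lower in control hearts. Other complement genes were called higher in 17 and lower in 1 of 21 in transgenic hearts, and higher in 10 and lower in 0 in control hearts. Other chemokines and receptors were higher in 13 of 29 in transgenic and in 9 in control hearts, with 0 lower in both. Phagocytosis and lysosome genes were higher in 12 and lower in 3 of 23 in transgenic hearts, and higher in 6 and lower in 6 in control hearts. Cytokine and activation genes were higher in 12 and lower in 1 of 27 in transgenic hearts, and higher in 5 and lower in 1 in control hearts. Growth and transcription factor genes were higher in 5 and lower in 2 of 17 in transgenic hearts, and higher in 6 and lower in 3 in control hearts. In control hearts the counts of cytokine genes called higher and of growth and transcription factor genes called lower are near the shares of all genes.

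**Figure D5:**
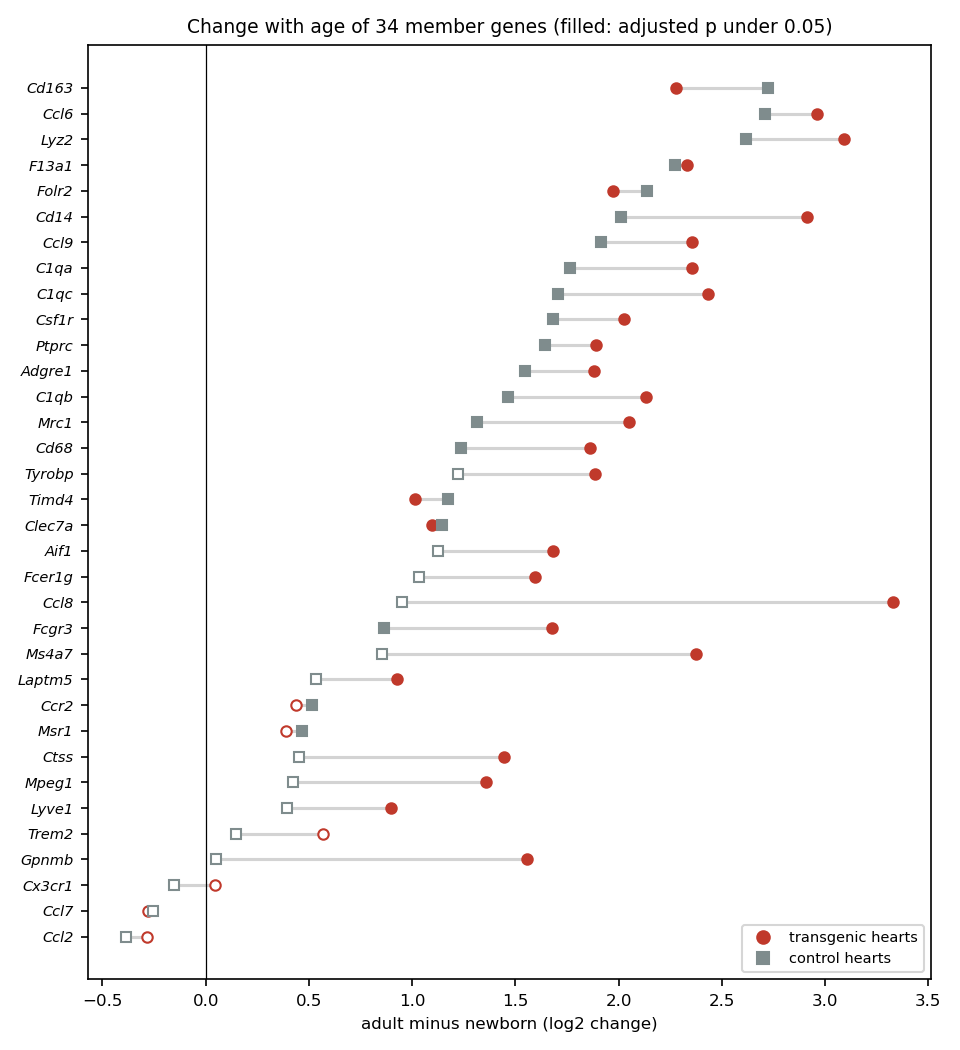
Adult minus newborn difference in log2 signal of the 34 genes, in transgenic hearts (circles) and control hearts (squares), ordered by the control value. Filled symbols have a limma adjusted p under 0.05, 28 in transgenic and 20 in control hearts; the longest gaps between the genotypes are those of Ccl8 (3.33 and 0.95), Ms4a7 (2.38 and 0.85) and Gpnmb (1.56 and 0.05).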

How the data were processed

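Total RNA of 11 left ventricles was hybridised as biotinylated cRNA to Affymetrix arrays, per the labels' protocols. The authors deposited log2 signals for 45101 probe sets, with array medians between 5.12 and 5.18, which would hide a shift shared by most transcripts. Per the submitters' processing notes the tools included RMA, affy and limma, in roles not stated, and the genome build is not given in the sources used here.

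Of the probe sets, 34958 had 1 gene symbol, 932 several and 9211 none. The 1-symbol probe set with the highest mean represented each of 18194 genes. The 4 groups were fitted together in limma 3.58.1 under R 4.3.3 (2-sided, Benjamini-Hochberg over all genes, threshold 0.05), after testing on simulated data. Alternatives were a replicate block, a filter on low values, other uses of probe sets, a variance trend, array weights, the compared groups alone, cyclic loess, the high-18S adult arrays as a factor or left out, an atrial covariate and leaving out each array. The p-values measure the spread between arrays, and the number of arrays limits precision.

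The genes, lists and tests were chosen with earlier results of these data known. Values of every array are given for genes called in a transgenic comparison, the 6 resident markers, Ccr2 and the 5 largest age differences per genotype; those of Cx3cr1 were added after their values were seen.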

Additional observations from a re-analysis of the deposited data

Results flagged for a closer look

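Gpnmb was singled out because its transgenic effect differed between the ages by a test of the difference itself. The adult effect was 1.71 (SE 0.16) and the newborn effect 0.20 (SE 0.18), a difference of 1.51 (SE 0.24, limma adjusted p = 0.0196). Under 12 alternatives this difference lay between 0.81 and 1.60 and was called in 6, with adjusted p from 0.0043 to 0.149.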

How the results depend on the processing

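The adult count of 7 called genes depended on the arrays and on the model. It was 13 with array weights, 14 with the high 18S signal as a factor, 18 with the pair of high-18S arrays left out, 1 with the adult arrays alone, 1 with atrial markers as a covariate and 4 when every probe set was tested separately, a setting chosen after seeing the data. With the atrial covariate the differences of C1qa, C1qc, Ctss, Mrc1 and Ccl8 were 1.00, 0.89, 1.21, 0.87 and 2.91, larger than in the main fit. Those of Cd14 and Gpnmb were 0.76 and 1.54, smaller than in the main fit. The SE of each of the 7 was larger. Leaving out each array in turn gave 1 to 19: 1 without transgenic adult replicate 1 or control adult replicate 2, 2 without transgenic adult replicate 2 or control adult replicate 3, 19 without transgenic adult replicate 3, and 4 without transgenic newborn replicate 1 or either newborn control. In all, 24 of the 34 genes stayed above 0 under the main fit and all 22 alternatives, and the adult median lay between 0.26 and 0.80. Of the 7, C1qc was called in 17 alternatives, Ctss in 16, Ccl8 in 16, Cd14 in 11, C1qa in 10 and Mrc1 in 10. The other complement genes called numbered 3 to 8, and the phagocytosis and lysosome genes 3 to 10.

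The count for the difference between the ages, 1 in the main fit, was 6 with array weights, 6 without the high-18S arrays, 0 when probe sets of a gene were averaged, 0 with the atrial covariate, and 0 to 6 with each array left out. The newborn count was 0 under every alternative. In control hearts the age count of 20 ran from 12 to 27 with each array left out, and its median of 1.16 was 1.40 with the 18S factor and 0.93 to 1.30 with an array left out. The age count in transgenic hearts ran from 24 to 30. The causes of these shifts were not tested. Fewer arrays entered the fit where arrays were left out.

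With the replicate number as a block, 9 genes were called in adults, 6 of them shared with the main 7. Deviations from the group means of same-numbered adult arrays correlated at 0.31, -0.0556 and 0.445, the last being the high-18S pair. Differently numbered adult arrays correlated at -0.417 to 0.307. Same-numbered newborn arrays gave 0.177 and -0.153, but deviations of 2 control arrays mirror each other, so these values cannot show pairing. The labels do not say that the numbers pair the arrays, so the main fit had no block. The filter on low values left 33 of the 34 genes, without Timd4. Over all genes, 1290 were called in adults in the main fit, 2625 with the 18S factor, 2183 without those arrays, 373 with the adult arrays alone and 238 with the atrial covariate.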

Other observations

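Other immune cell markers moved with age in control hearts in both directions. Of 5 mast cell markers, 4 were lower in adults, among them the carboxypeptidase Cpa3, which averaged 5.40 in control adults and 7.47 in control newborns (-2.07, SE 0.39, limma adjusted p = 0.00228). Of 8 neutrophil markers, the calprotectin genes S100a9 (-2.39, SE 0.67) and S100a8 (-2.20, SE 0.73) were lower in adults. Of 11 T, B and NK cell markers, 6 were higher in adults, by 0.76 for the B cell receptor component Cd79b (SE 0.22) and 0.57 for the T cell receptor component Cd3d (SE 0.18). Over all genes 14.9% were called higher and 18.1% lower in control adults.

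The chemokine Cxcl9 averaged 5.85 in control adults and 3.33 in control newborns (2.52, SE 0.50, limma adjusted p = 0.00305), and the scavenging receptor Ackr3 averaged 10.59 in control adults and 8.38 in control newborns (2.21, SE 0.18). The white fat gene Adipoq read 7.89 on control adult replicate 3, against 4.20 and 4.64 on the other adult controls.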
